A study of Mus musculus with 8 samples.

Results

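Cluster C5 was the hormone-sensing luminal cluster of the pregnant mammary gland. Its members were the cells that the authors' deposited annotation assigned to C5 and kept after quality control, taken from the libraries of the 2 mice at gestation. They numbered 61, with 20 from mouse 1 and 41 from mouse 2, out of 25009 retained cells in the series and 23183 cells in the epithelial clusters. The series profiled single mammary cells of C57BL/6N mice, 2 per stage, at 8 weeks of age without pregnancy (nulliparous, NP), on day 14.5 of gestation (G), on day 6 of lactation (L) and 11 days after weaning (post-involution, PI). All 8 libraries came from cells sorted for the epithelial protein EpCAM and against the endothelial, leukocyte and erythroid proteins CD31, CD45 and Ter119, so cells without EpCAM protein were sampled poorly. Each library held the cells of 1 mouse. Both NP mice and the second PI mouse were in oestrus and the first PI mouse was in dioestrus, and these 2 stages are the ones compared with G below.

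The mammary epithelium has an outer basal, contractile layer and an inner luminal layer, and the luminal layer holds secretory cells and hormone-sensing cells. Hormone-sensing cells carry the nuclear receptors for oestrogen and progesterone and the membrane receptor for prolactin, and in pregnancy they pass these signals to their neighbours through secreted factors such as amphiregulin, RANKL and WNT4. The neighbours, rather than the receptor-bearing cells, do most of the dividing and later make milk.

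C5 made up 0.780% of the 2565 epithelial cells of G mouse 1 (95% exact binomial interval 0.477 to 1.2%) and 1.58% of the 2592 of mouse 2 (1.14 to 2.14%). No NP cell was placed in C5, which allows a share of up to 0.141% and 0.151% in the 2 NP mice, and the hormone-sensing clusters C1 to C4 held no G cell. Hormone-sensing cells of all clusters were 58.7% and 69.7% of the epithelial cells in NP and 39.2% and 71.7% in PI. The intervals cover counting error only, and a sorted share of cells also depends on how well each cell type survives sorting. C5 cells held 4574 to 7981 transcripts in mouse 1 (median 6223.5) and 4106 to 13169 in mouse 2 (median 5514), each counted by its unique molecular identifier (UMI). No retained cell shared its barcode with another library.

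UMIs were summed over the C5 cells of each mouse, giving 123242 and 258370 UMIs, and levels are given as UMIs scaled to the total of each sum (counts per 1e6 UMIs, CPM). The sums of the 2 mice had a Spearman correlation of 0.858 across 5706 genes with a mean of at least 20 CPM, a description across genes, which are not independent replicates. C5 was set beside 3 clusters of the same mice, the alveolar secretory cells C8 (3744 cells), the alveolar progenitors C10 (215 cells) and the basal cells C13 (1119 cells). Because the clusters had been drawn on these same counts, differences between them are described and not tested. A gene was called higher or lower in C5 when it differed at least 2-fold the same way in both mice from each of the 3 clusters. Against C8 alone, 507 genes (8.89%) were higher and 483 (8.46%) lower, against C10 480 (8.41%) and 550 (9.64%), and against C13 793 (13.9%) and 849 (14.9%). By the rule over the 3 clusters 258 of 5706 genes (4.52%) were higher in C5 and 237 (4.15%) were lower. From mouse 1 alone, without mouse 2, the counts were 408 and 650, and from mouse 2 alone 347 and 385. With totals scaled by trimmed means (TMM) these became 153 and 346, since that scaling moved the median difference of C5 from C8, C10 and C13 from 0.031, -0.026 and 0.023 to -0.347, -0.235 and -0.319 on the log2 scale. The genes nearest the 2-fold limit were Bnip3, Ctnnbl1 and Chmp5 inside it (log2 differences of 1.006, 1.008 and 1.01) and Mycbp, Pttg1 and Dhrs1 outside it (0.9974, 0.9947 and 0.9901).

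The 3 receptor genes that mark hormone-sensing cells were all highest in C5. Prlr, which encodes the prolactin receptor (chromosome 15, 10177238 to 10349180, plus strand, mm10), was at 811 CPM in mouse 1 and 1060 CPM in mouse 2. The exact Poisson intervals of these values were 660 to 987 and 939 to 1194 CPM. The nearest cluster was C8, with 57.9 and 55.6 CPM, so C5 was 14-fold and 19.1-fold higher. C10 had 34.4 and 32.4 CPM and C13 had 1.77 and 5.26 CPM. Pgr, the progesterone receptor gene (chromosome 9, 8899833 to 8968611, plus strand), was at 114 and 120 CPM in C5 and between 0.907 and 13.1 CPM in the other clusters, with the highest values in the basal cells. Esr1, the gene of oestrogen receptor alpha (chromosome 10, 4611593 to 5005614, plus strand), was at 48.7 and 69.7 CPM in C5 and between 1.52 and 8.61 CPM elsewhere. The Esr1 values rest on 6 and 18 UMIs. S100a6, another marker used for hormone-sensing cells, did not follow this order. It was at 438 and 383 CPM in C5, above C8 (73.4 and 102 CPM) and below C10 (572 and 896 CPM) and C13 (720 and 740 CPM). Of the 5 markers that the study used, Prlr, Pgr and Cited1 were called higher, Esr1 did not reach the level minimum and S100a6 was not called. The clusters were drawn on these same counts, so this is a description and no independent check of the label.

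The other nuclear receptors were not shared out in this way. Nr3c1, which encodes the glucocorticoid receptor, was lower in C5, with 0 and 31.0 CPM against 71 CPM or more in every other cluster. No C5 cell held a UMI of Esr2, Calcr or the mineralocorticoid receptor gene Nr3c2. Of the 16 hormone receptor genes listed, 8 reached the level minimum, and 2 were called higher (Prlr and Pgr) and 1 lower (Nr3c1).

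Cell by cell, Prlr was detected in 18 of 20 and 41 of 41 C5 cells, Pgr in 10 and 20, and Esr1 in 5 and 11. In the basal cells C13 the shares with a Prlr UMI were 1.14% and 3.20% at median depths of 6201 and 6060 UMIs, close to the depths of C5. In C8 they were 46.6% and 42.0% at 10900 and 8676.5 UMIs. With every cell thinned to 2000 UMIs the Prlr shares were 55% and 82.9% in C5, 10.2% and 9.85% in C8 and 0.190% and 1.18% in C13. The Pgr share in C5 fell to 25% and 22% on thinning, and before thinning it was 9.14% and 4.71% in C13. Thinned Esr1 shares of 5.0% and 9.76% lay close to a level of 1 UMI and give no order. At least 2 of the 3 receptors were seen together in 11 of 20 and 27 of 41 cells, and no receptor UMI was found in 1 and 0 cells. Most C5 cells thus held Prlr, and fewer held a UMI of Pgr or Esr1.

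**Figure D1:**
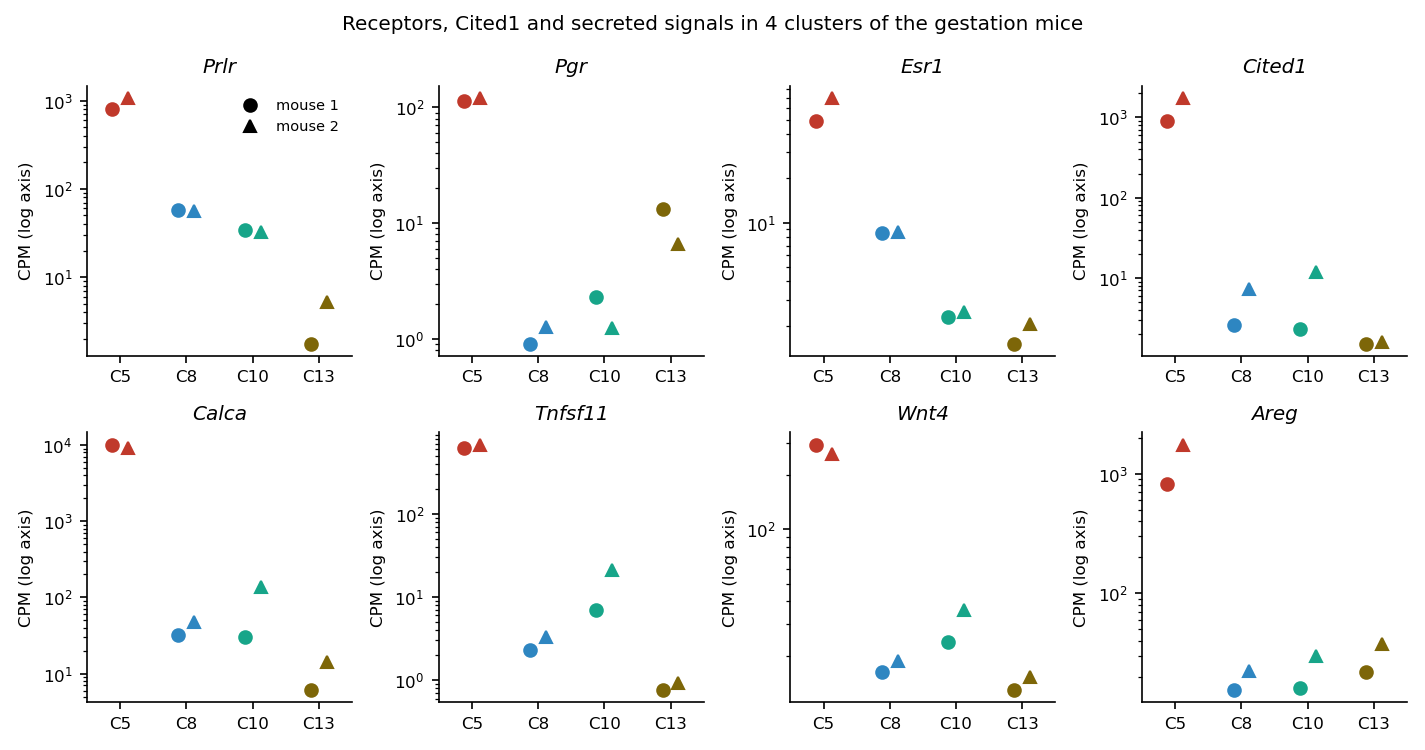
CPM of summed UMIs (log axis) for 8 genes in C5, C8, C10 and C13 of the gestation mice. Circles are mouse 1 and triangles mouse 2. In every panel both C5 values lie above all 6 values of the other clusters; Prlr is at 811 and 1060 CPM in C5 and at most 57.9 CPM elsewhere.

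Secreted signals were high in C5. Of 12 listed signals, 8 reached the level minimum, and 5 were called higher (Areg, Wnt4, Tnfsf11, Calca and Igf2) and 1 lower (Wnt5b). Calca, the gene of calcitonin and of the calcitonin gene-related peptide (chromosome 7, 114631478 to 114636357, minus strand), stood at 10078 and 9196 CPM. Its highest value in another cluster was 31.6 CPM in mouse 1 and 138 CPM in mouse 2. Igf2, a growth factor of the insulin family (chromosome 7, 142650766 to 142666816, minus strand), was at 2726 and 4575 CPM against at most 24.5 and 106 CPM. The 2 mice gave Calca levels close to each other, while Igf2 was higher in mouse 2.

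Tnfsf11, which encodes RANKL, the progesterone-induced mitogen of the gland (chromosome 14, 78277445 to 78308043, minus strand), was at 617 and 677 CPM in C5. The other clusters reached at most 6.89 and 21.2 CPM, both in C10. Wnt4, another mediator of progesterone (chromosome 4, 137277489 to 137299726, plus strand), was at 292 and 259 CPM against at most 23.7 and 35.6 CPM. Areg, the gene of the EGF receptor ligand amphiregulin (chromosome 5, 91139599 to 91148432, plus strand), was at 820 and 1742 CPM against at most 22 and 37.7 CPM.

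Not every signal of the list sat in C5. Rspo1, a secreted enhancer of Wnt signalling, was at 8.11 and 15.5 CPM in C5 and at 277 and 345 CPM in C8 and 448 and 372 CPM in C10. Wnt5b was at 0 and 3.87 CPM in C5 and reached 135 and 164 CPM elsewhere. The levels of different genes are not compared with each other, since UMIs counted at the 3′ end depend on each transcript's end as well as its amount.

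Several of these signals were detected together in single C5 cells. Of Calca, Areg, Tnfsf11, Wnt4 and Igf2, 4 or 5 were detected in 17 of 20 cells (85.0%) and 39 of 41 cells (95.1%), and no cell had fewer than 3. Calca ranged from 2 to 196 UMIs per cell in mouse 1 (median 54) and from 4 to 190 in mouse 2 (median 45). Igf2 was more uneven, with 0 to 124 UMIs (median 11.5) in mouse 1, where 15 of 20 cells had any and 1 cell held 36.9% of the UMIs, and 0 to 70 (median 26) in mouse 2, where 39 of 41 cells had any. Tnfsf11 was found in 17 of 20 and 35 of 41 cells, Areg in 19 and 40, and Wnt4 in 14 and 31. In C13, at about the same depth, the shares of cells with a UMI were 7.62% and 10.4% for Areg, 9.14% and 9.26% for Wnt4, 1.71% and 2.02% for Calca, 0.571% and 0.842% for Igf2 and 0.381% and 0.337% for Tnfsf11. Every C5 share lay above the C13 share of its gene. How much of the detection in either cluster is free RNA was not tested.

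**Figure D2:**
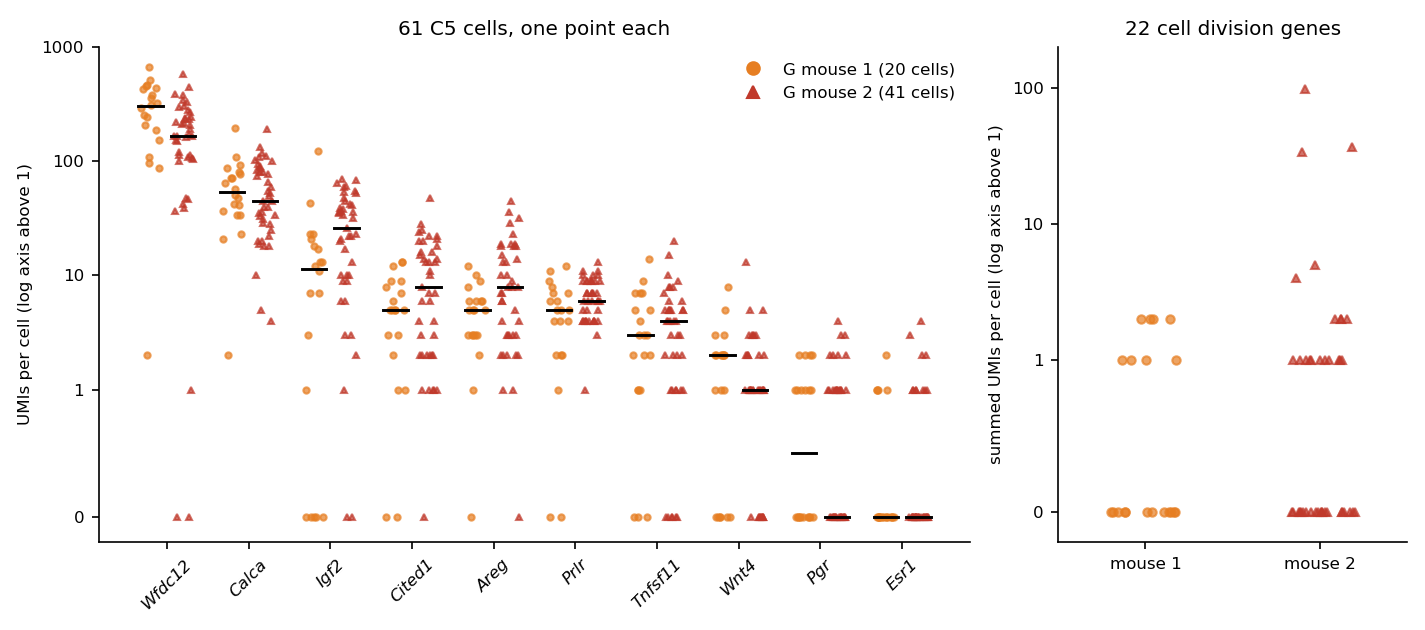
UMIs per cell (log axis above 1) in the 61 C5 cells for 10 genes, and summed UMIs of 22 cell division genes on the right. Points are cells, circles of mouse 1 and triangles of mouse 2, and bars in the left panel are medians; Calca has medians of 54 and 45 UMIs, and 3 cells of mouse 2 stand far above the rest in division genes.

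The promoters of 3 of these genes are shown because Calca and Tnfsf11 are signals held by C5 and Prlr is its main marker. Each window of 300 bases ran from 250 bases before to 50 after a RefSeq start on GRCm38.p6, and 14 of 21 C5 genes looked up had such an entry, with 23 windows in all. The windows were searched on both strands for 4 motifs. The palindromic oestrogen response element occurs in 0.0700% of all 32851 promoter windows. The progesterone receptor type motif ACANNNTGT occurs in 6.85% of them. For the FOXA type motif TGTTTAC the share is 3.65%. For the GATA type motif AGATAA it is 11.2%. Capitals mark a match, which is AGATAA on the reverse strand in the Calca window (chr7:114636308-114636607, minus strand) and TGTTTAC in the window of the second listed Prlr start (chr15:10223656-10223955, plus strand). The other Prlr windows held none of the 4 motifs. Among them is the window at the gene start given above (chr15:10176988-10177287), which is not printed. The Tnfsf11 window (chr14:78307994-78308293, minus strand) held none of the 4 motifs.
Calca: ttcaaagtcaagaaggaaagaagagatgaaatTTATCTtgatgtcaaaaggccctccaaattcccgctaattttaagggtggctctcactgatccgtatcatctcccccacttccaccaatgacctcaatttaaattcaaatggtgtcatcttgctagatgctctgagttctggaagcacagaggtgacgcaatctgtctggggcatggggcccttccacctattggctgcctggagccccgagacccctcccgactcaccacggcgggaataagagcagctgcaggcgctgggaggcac
Tnfsf11: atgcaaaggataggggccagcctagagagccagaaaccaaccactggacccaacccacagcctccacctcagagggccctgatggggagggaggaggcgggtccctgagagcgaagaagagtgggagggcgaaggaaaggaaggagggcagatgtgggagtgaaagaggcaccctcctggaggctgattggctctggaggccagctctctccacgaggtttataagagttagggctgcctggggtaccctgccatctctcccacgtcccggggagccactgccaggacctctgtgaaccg
Prlr: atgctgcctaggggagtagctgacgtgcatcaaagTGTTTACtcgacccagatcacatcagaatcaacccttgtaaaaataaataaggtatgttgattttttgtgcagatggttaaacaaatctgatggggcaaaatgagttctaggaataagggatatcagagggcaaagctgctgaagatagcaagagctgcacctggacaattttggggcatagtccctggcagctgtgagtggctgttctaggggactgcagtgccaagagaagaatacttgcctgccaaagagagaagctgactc
The only other matches among the 23 windows were 1 ACANNNTGT and 1 AGATAA in the first Cldn10 window.

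Few receptors for these signals were measured well enough to place. Of 16 listed, 4 reached the level minimum, and 3 were called lower in C5, namely the Wnt receptor gene Fzd7 and the R-spondin receptor genes Lgr4 and Lgr6, while none was higher. No C5 cell held a UMI of Tnfrsf11a, the gene of the RANKL receptor RANK. No C5 cell held a UMI of Egfr, the amphiregulin receptor gene, which was at 73.6 and 83.5 CPM in C13. Erbb4, the gene of another receptor of the same family (chromosome 1, 68032186 to 69108059, minus strand), was in contrast higher in C5, at 48.7 and 96.8 CPM against at most 9.36 CPM.

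Among transcription factors, Cited1, Foxa1 and Tbx3 were called higher of the 9 of 16 listed genes that reached the minimum, and none was lower. With TMM scaling 2 were called higher. Cited1, a co-activator that works with the oestrogen receptor (X chromosome, 102247381 to 102252181, minus strand), was at 909 and 1734 CPM against at most 2.57 and 11.9 CPM, and was detected in 18 of 20 and 40 of 41 cells. Foxa1, which opens chromatin for the oestrogen receptor (chromosome 12, 57540628 to 57546916, minus strand), was at 179 and 124 CPM against at most 12.2 and 9.36 CPM. Msx2 was at 73.0 and 77.4 CPM in C5 and at most 1.53 CPM elsewhere, but its mean over the clusters did not reach the minimum. Gata3, a factor of all luminal cells, was at 154 and 232 CPM in C5 and between 99.5 and 135 CPM in the other clusters.

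Of the 16 listed genes known to respond to oestrogen or progesterone, 10 reached the minimum, and 7 were called higher in C5 and none lower. These were Pgr, Areg, Tnfsf11, Wnt4, Calca, Cited1 and Fkbp5, several of which are members of the groups above. Ccnd1, Id4 and Adamts18 were not called.

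Secretory and progenitor genes were low in C5. Of 12 secretory lineage transcription factors, 10 reached the minimum, and Cebpb, Nfib, Sox9 and Sox10 were called lower and none higher. Sox9 was at 24.3 and 65.8 CPM in C5 and between 270 and 630 CPM elsewhere. Elf5, the alveolar master regulator, was at 8.11 and 11.6 CPM against 495 and 416 CPM in C8. The 10 luminal progenitor genes together took 0.00974% and 0.00852% of C5 UMIs against 0.577% and 0.372% in C8. Their share was 0.231% and 0.1795% in the alveolar progenitors C10 and 0.0213% and 0.0169% in C13. Elf5 and the casein gene Csn3 are members of this list, and Csn3 also counts as a milk protein gene. Of its genes 7 reached the minimum, and 1 was called lower than all 3 clusters and none higher. Milk protein genes took 0.184% and 0.0991% of C5 UMIs, 0.178% and 0.0942% in the basal cells C13 and 9.67% and 5.74% in C8. C5 and C13 thus held about the same small share. Csn2 in C5 was 2.09% and 1.74% of its C8 level, and in C13 it was 2.04% and 1.74%. Csn1s2b was at 37.4% and 97.3% of its C8 level in C5 and 9.32% and 1.92% in C13, on 1 and 3 UMIs in C5. Whether milk protein UMIs in C5 are free RNA was not tested.

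**Figure D3:**
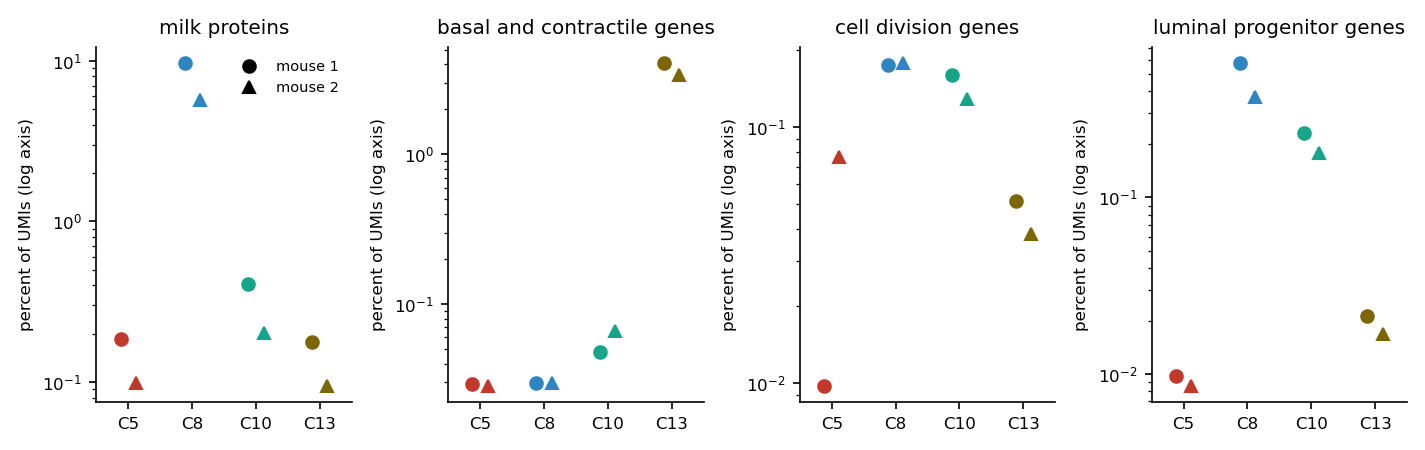
Percent of all UMIs (log axis) taken by milk protein, basal, cell division and luminal progenitor genes in the 4 clusters. Circles are mouse 1 and triangles mouse 2; C5 has 0.184% and 0.0991% of its UMIs in milk protein genes, next to 0.178% and 0.0942% in C13, and its 2 mice differ most in division genes, at 0.00974% and 0.0766%.

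Markers of other cell types took small shares of C5 UMIs. The 20 basal genes took 0.0292% and 0.0283% of C5 UMIs, about the share in C8 (0.0298% and 0.0296%), against 4.07% and 3.38% in C13. The 6 endothelial markers had no UMI in C5, the 5 pericyte markers took 0% and 0.000387%, the 7 fibroblast markers 0.00406% and 0.00310%, and the 8 immune markers 0.0122% and 0.00774%. Of the immune markers, Lyz2 (lysozyme) held the most C5 UMIs, with 13 and 17. Dissociation stress genes took 0.846% and 0.969% of C5 UMIs and 0.691% to 1.67% in the other clusters.

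Few C5 cells held many division transcripts. The 22 division genes had 12 UMIs in mouse 1, spread over 8 of 20 cells. No cell of mouse 1 had 5 or more, which allows a share of up to 15% of cells. In mouse 2, 4 of 41 cells (9.76%) had at least 5, these held 88.4% of the 198 division UMIs, and 1 cell alone held 99. A difference between the mice was thus not detectable with these cell numbers. In C8 the share of cells with at least 5 was 61% and 53.6%, in C10 64.0% and 63.5%, and in C13 17.9% and 14%. C8 and C10 had greater median depth per cell than C5, and C13 had about the same.

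The 15 genes furthest above the other clusters joined the signals to enzymes, transporters and secreted proteins. Wfdc12, a secreted protease inhibitor (chromosome 2, 164189231 to 164190608, minus strand), was at 48555 and 29957 CPM in C5, and its highest value elsewhere was 264 and 926 CPM. It ranged from 2 to 669 UMIs per cell in mouse 1 and from 0 to 576 in mouse 2. Gpx3, the secreted glutathione peroxidase (chromosome 11, 54902453 to 54910377, plus strand), was at 4836 and 3418 CPM, which was 253-fold and 41.2-fold over the highest other cluster. Pnmt, which encodes the enzyme that makes adrenaline from noradrenaline (chromosome 11, 98386450 to 98388181, plus strand), was at 747 and 743 CPM, 122-fold and 49.6-fold higher, in 16 of 20 and 25 of 41 cells.

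Hsd11b2, whose enzyme inactivates glucocorticoids (chromosome 8, 105518755 to 105523988, plus strand), was at 316 and 372 CPM, 59.1-fold and 143-fold over the highest other cluster. Nr3c2 had no UMI in the same cells, and Nr3c1 was low as described above. Agtr1a, an angiotensin receptor gene, was at 495 and 577 CPM, and Fxyd2, a subunit of the sodium pump, at 1347 and 991 CPM. Tmprss6, a membrane serine protease gene, was at 690 and 557 CPM and Hepacam2 at 333 and 364 CPM. Tesc, Apof, Cdo1 (cysteine dioxygenase) and Cldn10 (a claudin) were at 227 to 681 CPM and completed the set with Cited1, Calca and Igf2.

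Transcripts of this kind that were seen in the other gestation clusters came mostly from few cells. In C8, 11 of 1926 and 16 of 1818 cells held at least 10 UMIs of both Calca and Wfdc12, and these held 90.7% and 72.5% of the Calca UMIs of that cluster. Their median depth was 20901 and 29887 UMIs, and 7 of 11 and 13 of 16 lay above 2 times the median of their library. In C5 itself 18 of 20 and 36 of 41 cells met the same criterion and none exceeded 2 times the library median. The deposited annotation holds a cluster that the study set aside as doublets (C20, with 103 and 205 cells in the G mice). It was not used here, and no doublet caller was run.

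**Figure D4:**
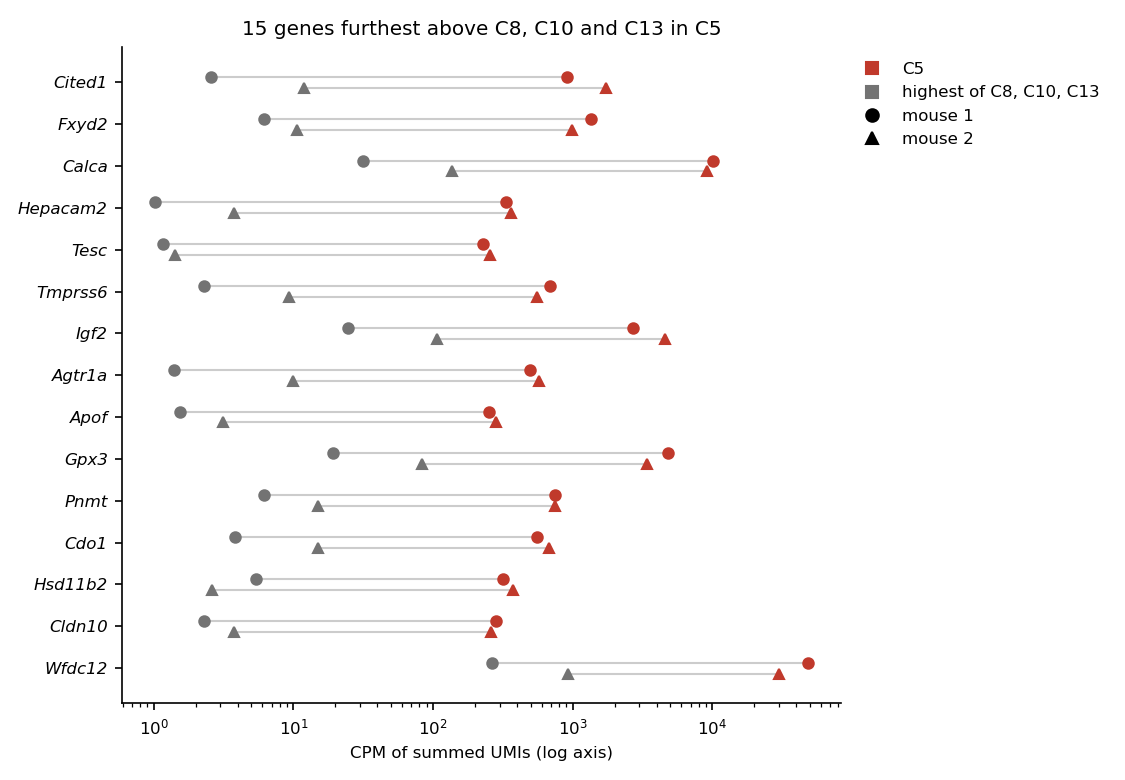
CPM of summed UMIs (log axis) of the 15 genes furthest above the other clusters in C5 (red) and in the highest of C8, C10 and C13 (grey). Circles are mouse 1 and triangles mouse 2; Wfdc12 is at 48555 and 29957 CPM in C5 and at 264 and 926 CPM in the highest other cluster.

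The 10 genes furthest below the other clusters included Thbs1, an extracellular matrix glycoprotein gene, at 40.6 and 31.0 CPM in C5 against 3574 and 3646 CPM in the highest other cluster. Lcn2, an iron-binding lipocalin gene, was at 8.11 and 27.1 CPM against 1838 and 1895 CPM. Rhoj, Nr4a2, Egln3 and Cbr2 had no UMI in C5. Fabp5, Pde4b, Dusp6 and Atp2b1, a calcium pump gene, had 0 to 27.1 CPM.

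To ask how hormone-sensing cells of pregnancy differed from those of other stages, C5 was compared with clusters C3 and C4, the differentiated hormone-sensing cells of the other stages, summed by mouse in NP (983 and 1217 cells) and PI (452 and 2575 cells). Differences were tested in edgeR by quasi-likelihood, with p-values adjusted (Benjamini-Hochberg) over all 11591 genes, and log2 changes are given with their standard errors. C5 against NP gave 754 genes higher in G (6.51%) and 1055 lower (9.10%). C5 against PI gave 598 higher (5.16%) and 894 lower (7.71%). In either direction 15.6% of genes passed against NP and 12.9% against PI. The counts of the gene lists below stand beside these shares, and no list was tested as a set. With DESeq2's size factors and test the splits were 991 and 725, and 817 and 620. Without G mouse 1 the counts were 476 and 522 against NP and 352 and 487 against PI, and without G mouse 2 they were 204 and 195, and 120 and 174. The median change over all genes was -0.24 and -0.19 with TMM and -0.15 and -0.11 with DESeq2. Both comparisons use the same 2 C5 sums, which rest on 20 and 41 cells at fewer UMIs per cell than NP (medians 10119 and 10280), while PI had medians of 7212.5 and 5634. As no G cell was in C1 to C4 and no NP or PI cell in C5, stage and cluster cannot be told apart, and the oestrous stage differs between PI mice.

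Several signals rose in C5. Tnfsf11 rose from 2.58 and 1.65 CPM in NP to 617 and 677 CPM in C5, a log2 change of 8.00 ± 0.25 (adjusted p = 9.0e-21), and had 1 UMI in all PI cells (adjusted p = 2.5e-21). Calca rose from 134 and 46.6 CPM by 6.49 ± 0.62 (adjusted p = 3.6e-09), and from 0.274 and 46.6 CPM in PI by 8.27 ± 0.68 (adjusted p = 1.8e-10). Igf2 rose from 0.235 and 3.02 CPM in NP by 10.78 ± 0.46 and from 1.64 and 1.18 CPM in PI by 11.27 ± 0.49. The 2 C5 values lay far above all 4 NP and PI values for each of these genes.

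Wnt4 was at 114 and 133 CPM in NP and 89.6 and 87.1 CPM in PI and rose by 0.86 ± 0.21 (adjusted p = 0.0047) and 1.45 ± 0.22 (adjusted p = 1.3e-05). Its rise over NP did not pass without G mouse 1 (adjusted p = 0.083), G mouse 2 (0.11) or NP mouse 1 (0.068). Areg went the other way against NP, falling from 3218 and 3474 CPM by 1.63 ± 0.27 on the log2 scale (adjusted p = 3.8e-05), and its PI values of 1034 and 1624 CPM overlapped those of C5 (log2 change -0.20 ± 0.26, adjusted p = 0.68). Wnt5a fell from 105 and 103 CPM in NP to 8.11 and 15.5 CPM in C5 (log2 change -3.27 ± 0.52), and Wnt7b from 84.3 and 108 CPM to 8.11 and 3.87 CPM (-4.47 ± 0.57). Without G mouse 2 the fall of Wnt5a did not pass (adjusted p = 0.11). Of the 10 signals tested, 5 rose and 3 fell against NP, and 5 rose and 2 fell against PI, with a median log2 change of 0.45 and 0.93. The fifth that rose was Rspo1, on 1 and 4 UMIs in C5.

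**Figure D5:**
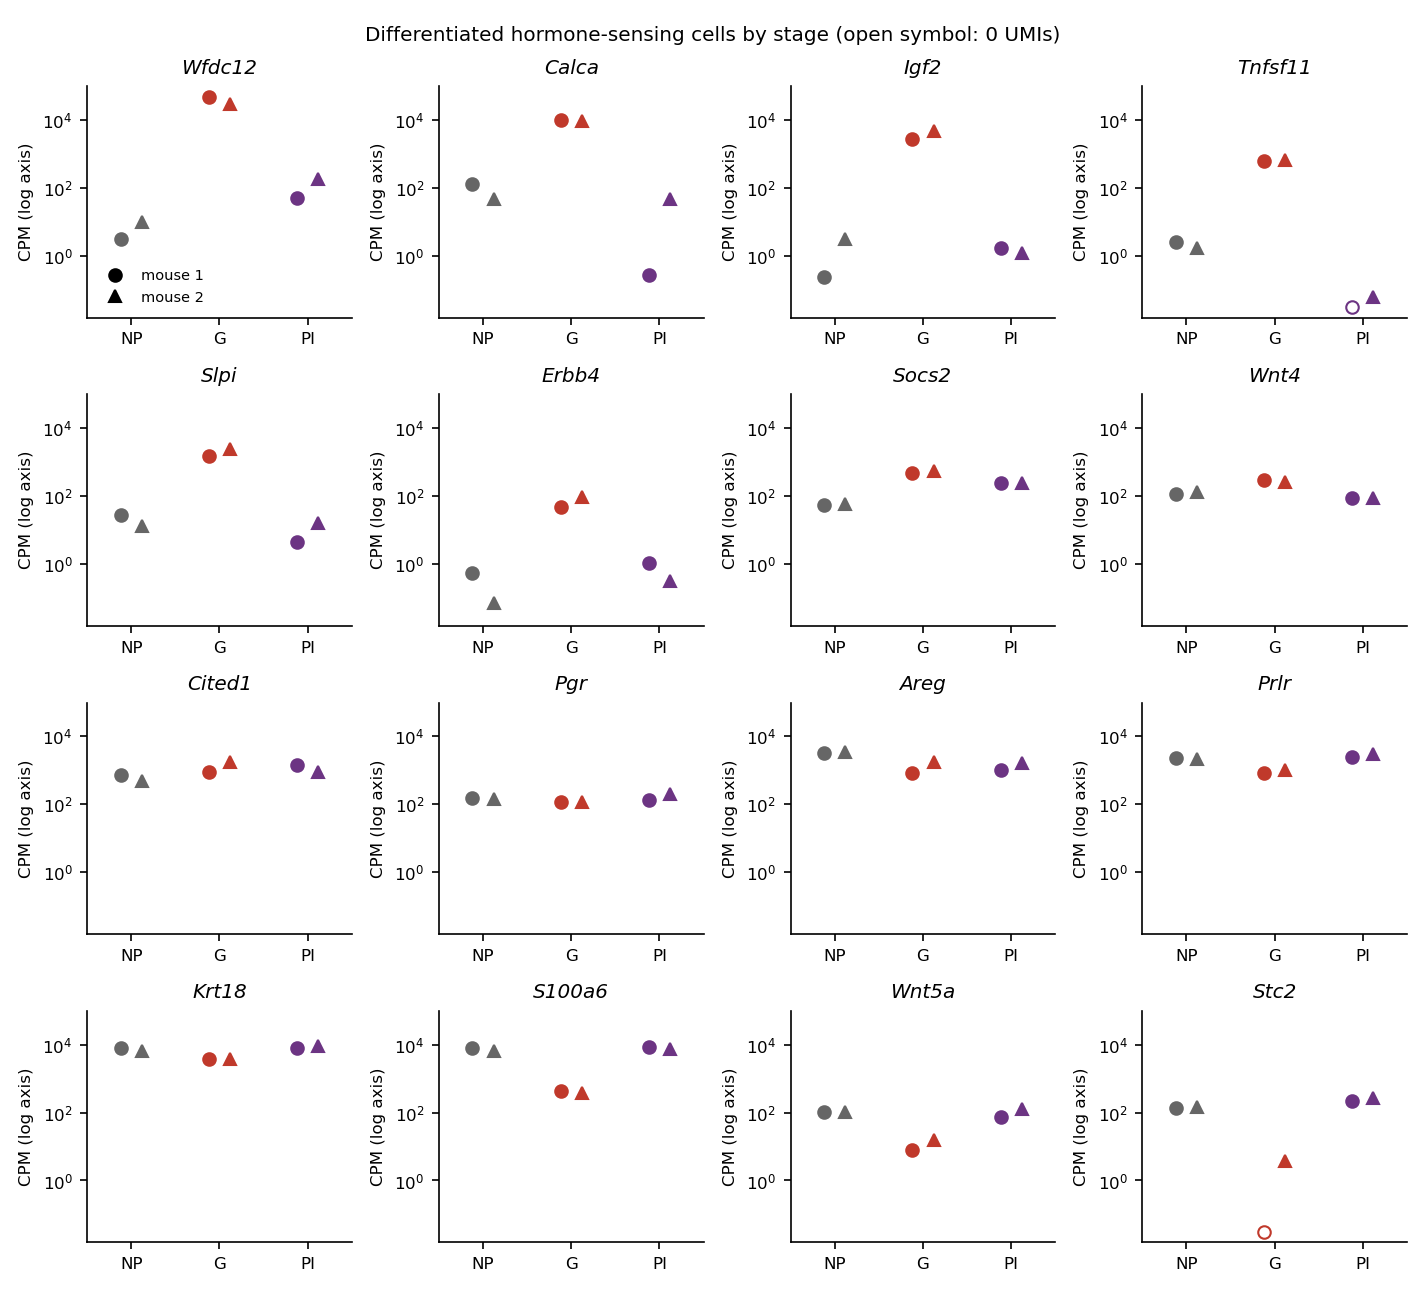
CPM (log axis) of 16 genes in the summed differentiated hormone-sensing cells of NP, G and PI mice, with circles for mouse 1, triangles for mouse 2 and open symbols for 0 UMIs. Calca, Igf2, Tnfsf11 and Wfdc12 stand highest in G, Prlr moves from 2276 and 2226 CPM in NP to 811 and 1060 in G, and S100a6 and Stc2 stand lowest in G.

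Prlr fell in C5 against both stages. It was at 2276 and 2226 CPM in NP and 2484 and 3050 CPM in PI, and was lower in C5 by a log2 change of -1.52 ± 0.22 (adjusted p = 5.4e-06) and -1.72 ± 0.22 (adjusted p = 8.9e-07). Pgr did not pass against NP (158 and 142 CPM, log2 change -0.62 ± 0.28, adjusted p = 0.13) or PI (138 and 203 CPM, -0.73 ± 0.28, adjusted p = 0.085). Esr1 did not pass either, with 80.4 and 90.8 CPM in NP (-0.73 ± 0.33, adjusted p = 0.14) and 74.5 and 47.3 CPM in PI (-0.09 ± 0.34, adjusted p = 0.90).

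Of the 13 hormone receptor genes tested, none rose and 5 fell against each stage (Prlr, Nr3c2, Thra, Rara and Rarg), with a median log2 change of -0.73 and -0.66. With DESeq2, 4 and 5 fell. Nr3c2 was at 20.0 and 20.5 CPM in NP and 25.2 and 23.5 CPM in PI, and its absence from the pooled C5 UMIs puts it at least 2.58-fold and 3.10-fold lower, taking 3 counts over the group as the floor. Rarg, a retinoic acid receptor gene, fell from 43.2 and 40.1 CPM in NP to 8.11 and 3.87 CPM. Without G mouse 2, Thra, Rarg and Nr3c2 did not pass against either stage, and Thra did not pass against NP without G mouse 1 (adjusted p = 0.064) or with 20 cells per mouse (0.064).

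Among receptors of the signals, 2 of 10 tested rose against each stage and none fell, near the 15.6% and 12.9% of all genes that passed. Tnfrsf11b, which encodes the RANKL decoy osteoprotegerin, was at 32.5 and 15.5 CPM in C5 against 0.940 and 0.0687 CPM in NP (log2 change 5.16 ± 1.05) and 0.548 and 1.18 CPM in PI (4.17 ± 0.99). The rises of Tnfrsf11b over NP and PI did not pass without either G mouse. Fzd2 was the other, and without G mouse 2 it did not pass against NP (adjusted p = 0.24) or PI (0.35). In the EGF family Erbb4 rose from 0.548 and 0.0687 CPM in NP by 7.71 ± 0.69 and from 1.10 and 0.311 CPM in PI by 7.09 ± 0.69, the 1 of 11 that rose over NP and 1 of 2 over PI. Areg, Btc and Hbegf fell against NP, and against PI Hbegf was the 1 that fell. Without G mouse 2 the falls of Btc and Hbegf against NP did not pass (adjusted p = 0.14 and 0.13), and that of Btc did not without G mouse 1 (0.092).

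Transcription factors split by member. Cited1 rose from 728 and 498 CPM in NP (log2 change 0.87 ± 0.25, adjusted p = 0.013), a call lost without G mouse 2 or NP mouse 2 (adjusted p = 0.71 and 0.056) and with DESeq2 (0.058), and it did not differ from PI beyond the spread, at 1488 and 876 CPM there (0.04 ± 0.25, adjusted p = 0.95). Foxa1 at 108 and 106 CPM in NP and 102 and 101 CPM in PI also showed no change past the threshold (0.15 ± 0.24 and 0.34 ± 0.25), and nor did Gata3 (0.32 ± 0.23 and 0.47 ± 0.23). Runx1, a luminal and basal regulator, fell from 374 and 439 CPM in NP to 146 and 108 CPM by 2.01 ± 0.26 on the log2 scale, and against PI by 2.02 ± 0.26. Bhlhe41, a clock-related repressor gene, fell from 329 and 393 CPM in NP to 16.2 and 96.8 CPM, and Tox2 from 67.2 and 70.5 CPM to 0 and 3.87 CPM. Id2, an inhibitor of helix-loop-helix factors, rose from 23.0 and 21.2 CPM to 138 and 85.1 CPM. In all, 4 of 16 rose and 5 fell against NP, and 2 rose and 6 fell against PI. With DESeq2 the counts were 3 and 4, and 2 and 4.

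Genes known to respond to oestrogen or progesterone did not move one way. Of 12 tested, 5 rose and 2 fell against NP and 4 rose and 2 fell against PI. Besides the signals and Cited1, Fkbp5, a progesterone and glucocorticoid responsive chaperone gene (chromosome 17, 28399094 to 28517527, minus strand), rose from 3.68 and 5.84 CPM in NP and 6.03 and 6.17 CPM in PI to 105 and 147 CPM (4.49 ± 0.37 and 4.23 ± 0.37). Stc2, an oestrogen-responsive secreted glycoprotein gene, fell from 137 and 142 CPM in NP and 218 and 267 CPM in PI to 0 and 3.87 CPM (-6.00 ± 0.62 and -6.70 ± 0.57). Greb1 had no UMI in C5.

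In the prolactin pathway, feedback genes changed while the kinase and the transducers did not pass. Socs2, a STAT5 target that damps cytokine signalling (chromosome 10, 95385362 to 95417180, minus strand), was at 479 and 553 CPM in C5 against 56.1 and 57.2 CPM in NP (log2 change 2.93 ± 0.20, adjusted p = 1.7e-12) and 251 and 251 CPM in PI (0.89 ± 0.19, adjusted p = 0.0013). Cish, a gene of the same family, rose from 9.48 and 9.76 CPM in NP to 16.2 and 50.3 CPM (1.73 ± 0.54, adjusted p = 0.026), a call lost without either G mouse. Socs3 fell from 388 and 373 CPM in NP to 89.3 and 46.4 CPM (-2.91 ± 0.34) and against PI by 2.15 ± 0.36 on the log2 scale. Jak2, at 64.9 and 42.6 CPM in C5, and Stat5a, at 40.6 and 65.8 CPM, overlapped with NP and did not pass. Of the 16 genes, 3 rose and 4 fell against each stage, with 3 and 3 against NP by DESeq2, and Prlr and Igf2 are among them. The Socs2 rise over PI did not pass without G mouse 2 (0.74, adjusted p = 0.17), and nor did the fall of Socs3 against PI (-1.63, adjusted p = 0.22).

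Structural luminal genes were lower in C5. Krt18 was at 8107 and 6695 CPM in NP and 3838 and 3743 CPM in C5 (-1.24 ± 0.22), and Krt8 went from 5406 and 3903 CPM to 2093 and 2284 CPM (-1.35 ± 0.22). Cldn4, a tight junction claudin, fell from 2290 and 1933 CPM to 365 and 341 CPM (-2.86 ± 0.23), while Cldn8 rose from 15.6 and 16.6 CPM to 227 and 174 CPM (3.31 ± 0.25). Epcam, the sorting marker, was at 2085 and 2748 CPM against 2868 and 2119 CPM and did not pass against NP (-0.31 ± 0.21). Against PI Epcam was lower (-0.79), a call lost with 20 cells per mouse (adjusted p = 0.060) and without either G mouse. Of 13 keratin and junction genes, 1 rose and 8 fell against NP and 1 rose and 9 fell against PI. DESeq2 gave 1 and 8 in both. Without G mouse 2 the fall of Krt18 did not pass (adjusted p = 0.076). S100a6, a calcium-binding protein gene that marks hormone-sensing cells, fell from 7786 and 6575 CPM in NP and 8476 and 7243 CPM in PI to 438 and 383 CPM (-4.41 ± 0.26 and -4.44 ± 0.26).

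Lipid genes rose more often than they fell. Of 19 tested genes that serve milk fat, 11 rose and 1 fell against NP, and 9 rose and none fell against PI, where 10 did not pass. Scd2, a fatty acid desaturase gene, rose from 24.5 and 25.6 CPM in NP to 130 and 135 CPM (2.13 ± 0.27), and no other gestation cluster exceeded 39.0 CPM. Fads1, another desaturase gene, rose from 0.705 and 1.03 CPM to 40.6 and 46.4 CPM, which was above C13 (14.9 and 13 CPM) and below C8 (112 and 102 CPM). Xdh, whose product coats milk fat droplets, rose from 2.04 and 1.51 CPM to 40.6 and 46.4 CPM, against 19.5 and 19.7 CPM in C13 and 93.1 and 73.1 CPM in C8. Lpl (lipoprotein lipase) rose from 0.0783 and 0.824 CPM to 56.8 and 38.7 CPM, with 18.5 and 8.92 CPM in C13 and 261 and 180 CPM in C8. The part that background from C8 plays in the last 3 was not tested. Milk protein genes also passed (4 of 5 tested, each of them higher), at a summed C5 level close to that of C13, as given above. The part of free RNA in these changes was not tested.

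Growth regulators changed beside these groups. Id3, a target of BMP signalling (chromosome 4, 136143497 to 136145755, plus strand), was at 487 and 615 CPM in C5 against 131 and 157 CPM in NP (1.68 ± 0.22) and at most 57.4 CPM in the other gestation clusters, and Id1 rose from 1.10 and 1.31 CPM to 16.2 and 42.6 CPM. Of 12 TGF-beta family genes tested, 2 rose and 2 fell against each stage, and Inhbb, an activin subunit gene, fell from 59.7 and 60.3 CPM to 16.2 and 3.87 CPM. Hes6, of the Notch list, rose from 16.7 and 15.6 CPM to 146 and 104 CPM (2.61 ± 0.30). In that list 2 of 9 rose and 1 fell against NP, and 1 rose against PI. Cdkn1a, the p21 inhibitor gene, fell from 226 and 165 CPM to 97.4 and 42.6 CPM and Cdkn1c, the p57 inhibitor gene, rose from 2.04 and 3.23 CPM to 32.5 and 31.0 CPM. Without G mouse 2 the calls against NP of Id1 (adjusted p = 0.27), Inhbb (0.18), Cdkn1a (0.23) and Cdkn1c (0.18) were lost. Of 16 division genes 9 rose against each stage, or 6 against NP by DESeq2, on UMIs that came mainly from the 4 cells of mouse 2. Top2a was at 0 and 155 CPM in C5. Without mouse 2 its change over NP went from 5.08 to -7.46, a value fitted to a count of 0 that shows no direction. Of the 16 dissociation stress genes, 2 were higher and 5 lower against NP (Jun by -1.23, Junb by -1.52 and Ier3 by -2.27 among the lower), so 7 of 16 passed where 15.6% of all genes did. Against PI 1 was higher and 2 lower.

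Some markers of other lineages passed between stages. Over all genes 15.6% passed against NP and 12.9% against PI, and the share of basal and contractile genes was close to these. Of 18 basal and contractile genes tested, 1 rose (Sparc) and 2 fell (Krt17 and Tpm2) against NP, and 3 rose against PI (Acta2 by 3.01, Tagln by 2.45 and Sparc by 4.95 on the log2 scale), with a list median of -0.17 against NP and 1.4013 against PI. These medians include 2 genes without a UMI in C5. With such genes at the floor of 3 counts, or left out where the other stage lay below it, they were 0.0744 and 1.56. The median against NP thus shows no direction. Eng, the 1 endothelial marker tested, had no UMI in C5 and was lower against both (24.3 and 26.9 CPM in NP, adjusted p = 0.0015, and 16.4 and 10.0 CPM in PI, adjusted p = 0.037). Of 5 fibroblast markers tested none passed against NP, and Col3a1 rose over PI on 1 and 3 UMIs in C5 (adjusted p = 0.041). The 1 pericyte marker tested did not pass. Of 3 immune markers tested Lyz2 was the 1 that rose, from 0.783 and 0.137 CPM in NP and 1.37 and 3.67 CPM in PI to 105 and 65.8 CPM in C5, and it was at 42.6 and 35.9 CPM in G basal cells. Their part in the changes of other genes was not tested.

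The largest rises over NP included genes with no UMI in any NP hormone-sensing cell. Pnmt was at least 6784-fold higher in C5, Ly6h at least 576-fold, Unc5d at least 541-fold and Tox at least 416-fold, with 3 counts over the NP group as the floor. Hsd11b2 rose from 0.313 and 0.206 CPM in NP and 0.548 and 0.498 CPM in PI (log2 change 10.05 ± 0.38 and 9.18 ± 0.38). Wfdc12 rose from 3.21 and 9.69 CPM in NP and 48.8 and 186 CPM in PI (12.26 ± 0.61 and 8.15 ± 0.52). H19, a noncoding RNA of the Igf2 region, rose from 6.73 and 3.57 CPM in NP to 454 and 612 CPM (6.47 ± 0.26). In PI it had 2 UMIs.

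Not every leading gene of C5 was a gene of gestation. Gpx3 was at 2778 and 1650 CPM in NP (0.63 ± 0.26, adjusted p = 0.10) and 2246 and 3941 CPM in PI (0.22 ± 0.26), and Cdo1 at 310 and 418 CPM in NP (0.50 ± 0.24, adjusted p = 0.18). Against PI Cdo1 was higher by 0.72 on the log2 scale. That call was lost with DESeq2 (adjusted p = 0.13), with 20 cells per mouse, and without either G mouse or PI mouse 1. Fxyd2 was above NP (647 and 499 CPM, 0.74 ± 0.21, adjusted p = 0.015) and below PI (4411 and 3865 CPM, -2.01 ± 0.22). Hepacam2 at 2.58 and 1.65 CPM in NP and 44.9 and 37.1 CPM in PI, Tmprss6 at 3.84 and 3.98 CPM and 112 and 104 CPM, and Apof at 7.83 and 5.70 CPM and 101 and 51.1 CPM rose over both, with C5 at 252 CPM or more. The call of Fxyd2 over NP was lost without either G mouse or NP mouse 2, and that of Apof over PI without G mouse 2.

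The largest falls included genes with no UMI in C5. Dmbt1, a mucosal scavenger receptor gene (chromosome 7, 131032053 to 131121630, plus strand), was at 403 and 356 CPM in NP and had no UMI in C5, which puts it at least 48.3-fold lower. Ido1, which encodes a tryptophan-degrading enzyme, was at 302 and 856 CPM in PI and at least 73.6-fold lower in C5. Without G mouse 2 the fall of Dmbt1 against PI did not pass.

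Whether the change from NP to G differed between hormone-sensing and basal cells was tested by an interaction term with a term for the mouse, on basal sums of 504 and 283 cells in NP and 527 and 604 in G. The change was higher in hormone-sensing cells for 694 of 12015 genes (5.78%) and lower for 1362 (11.3%), and with DESeq2 for 551 and 563. It was 284 and 786 without G mouse 2, 369 and 787 without NP mouse 1 and 326 and 903 without NP mouse 2. The median term was -0.38 with edgeR and -0.07 with DESeq2. The standard errors below use a spread pooled over all genes and not each gene's own. Slpi, a secreted protease inhibitor gene (chromosome 2, 164354070 to 164389095, minus strand), rose in hormone-sensing cells from 28.5 and 13.6 CPM to 1493 and 2411 CPM and was at 1232 and 1792 CPM in NP basal cells and 97.8 and 170 CPM in G basal cells (interaction 9.57 ± 0.19). Emb, a cell adhesion gene, rose from 2.04 and 0.893 CPM to 795 and 782 CPM, and basal cells had 134 and 126 CPM in NP and 193 and 220 CPM in G (interaction 7.90 ± 0.25). Sox9 moved the other way, from 384 and 430 CPM to 24.3 and 65.8 CPM in hormone-sensing cells and from 248 and 226 CPM to 359 and 439 CPM in basal cells (-4.25 ± 0.28).

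Transcripts of hormone-sensing cells were also present in the basal sums, and more so in NP. For the 6 of the 15 leading C5 genes that reached 100 CPM in NP hormone-sensing cells, the basal level was 7.91% to 10.9% of the hormone-sensing level in NP (median 9.69%), whereas in G the basal level of the 15 genes was 0.0326% to 0.798% of C5 (median 0.133%). Prlr was at 198 and 220 CPM in NP basal cells and 1.76 and 5.16 CPM in G basal cells beside its interaction of 4.12 ± 0.26. The part of this difference in the interaction values of Prlr, Cited1, Foxa1, Areg, Fxyd2 and Gpx3 was not tested.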

How the data were processed

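Single cells were captured with a 10x 3′ kit, and the deposited values are the authors' Cell Ranger UMI counts per gene and cell (mm10, tools as in the study's methods), with the authors' cluster for each cell in a separate table. The authors' table also gives the mitochondrial fraction of each cell, used only to describe depth and quality. All counts were used as deposited; no count row without a gene name occurred. UMIs were summed per mouse and cluster. Within gestation, CPM of the sums were compared with an offset of 4.057 CPM, a minimum mean of 20 CPM and a 2-fold limit in both mice. Between stages, sums of C3 to C5 in NP, G and PI were fitted in 1 model with edgeR 4.0.16 (quasi-likelihood test, TMM, filterByExpr with 10 and 15 counts, adjusted p under 0.05). The p-values rest on 2 mice per stage and on a spread shared across genes. The shared part weighed 26.24 degrees of freedom against a mean of 2.894 from each gene. The NP and PI sums hold far more cells than those of G. The interaction used 8 sums and a mouse term. Its shared part had infinite weight, so its standard errors and p-values use a trend over all genes and not each gene's own spread between mice. On simulated counts with 4-fold changes in 200 genes, the G against NP test recovered 38.5% (of 11805 genes) and the interaction 21% (of 11974). The simulated dispersion was 0.05, while the fits to the data gave 0.016 for the stages and 0.0045 for the interaction. The recovered shares therefore do not give the power of the tests on these data. Alternatives covered scaling (DESeq2 1.42.0), filters, cell numbers, clusters used, thinning to 2000 UMIs and each mouse left out. Members and gene lists were chosen with earlier results of these data known. Named genes were list members, genes of the study, the 15 and 10 genes furthest above and below in C5, and the 10 largest rises and falls of each test. A gene that this rule names is not reported here. Gene positions are from GENCODE vM21 and promoters from RefSeq. L mice were not compared, as they held 2 C5 cells.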

Additional observations from a re-analysis of the deposited data

Results flagged for a closer look

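The change from NP to G differed between hormone-sensing and basal cells by the interaction test for 694 genes in the direction of a higher change in hormone-sensing cells and for 1362 genes in the other direction. Among the signals and their receptors the interaction was 9.79 for Igf2, 7.38 for Erbb4, 6.92 for Tnfsf11, 5.46 for Calca, 1.47 for Areg and 1.04 for Wnt4 on the log2 scale. Among the leading genes of C5 it was 10.98 for Hsd11b2, 6.80 for Wfdc12, 5.59 for Cited1, 5.57 for Fxyd2 and 5.13 for Gpx3. It was 10.81 for Ly6h, 9.57 for Slpi, 8.00 for Peg3, 7.90 for Emb, 4.40 for Fkbp5, 4.12 for Prlr, 4.05 for Foxa1, 2.88 for Csn1s1 and 1.73 for Socs2. A higher change is not always a rise. From NP to G, Prlr (-1.52) and Areg (-1.63) fell in hormone-sensing cells, and Gpx3 and Foxa1 did not pass. Basal levels of leading C5 genes were a median 9.69% of the hormone-sensing level in NP (6 genes) and 0.133% in G (15 genes). The part of this difference in these values was not tested. The genes with a lower change in hormone-sensing cells were Sox9 at -4.25, S100a6 at -2.96 and Runx1 at -2.29. For Csn1s1, which was at 8.93 and 0 CPM in the NP basal sums and at 412 and 235 CPM in G basal cells, the C5 level of 446 and 232 CPM was close to that of the basal cells, and without NP mouse 1 its interaction turned to -4.23. Without NP mouse 1 the calls of Erbb4, Ly6h, Wfdc12 and Wnt4 were lost (adjusted p = 1.0, 0.063, 0.15 and 0.25), and without NP mouse 2 those of Hsd11b2 and Tnfsf11 (0.062 and 0.97).

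One lactation library held 2 cells of C5 that no comparison used. These had 19 UMIs of Prlr, 7 of Cited1, 84 of Wfdc12 and 119 of Gpx3, and none of Calca or Tnfsf11. As 3192 CPM, Prlr lay above the 1.231 CPM of the 4637 basal-lineage cells (C14) of that library. With 2 cells from 1 mouse this is a value without a replicate.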

How the results depend on the processing

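Within gestation, the counts of genes higher and lower than all 3 clusters (258 and 237) became 153 and 346 with TMM totals, 414 and 420 with a minimum of 5 CPM, 480 and 429 with none, and 86 and 63 at 4-fold. Against C8 (507 and 483) these were 299 and 790, 852 and 898, 959 and 1048, and 173 and 166. Against C10 (480 and 550) they were 332 and 732, 741 and 1028, 836 and 1187, and 151 and 203. Against C13 (793 and 849) they were 487 and 1150, 1196 and 1469, 1295 and 1890, and 246 and 384. From 1 G mouse at a time they were 347 to 408 and 385 to 650 for all 3 clusters, 712 to 881 and 715 to 1009 for C8, 717 to 804 and 807 to 1141 for C10, and 1090 to 1172 and 1112 to 1307 for C13. Thinning changed no count by over 1.5 times. It lowered the shares of C5 cells with a UMI to 55% and 82.927% for Prlr, 25% and 21.951% for Pgr and 5.0% and 9.7561% for Esr1. No C5 cell exceeded 2 times the library median, but cells of other clusters did. Among the C8 cells with at least 10 UMIs of both Calca and Wfdc12, 7 of 11 and 13 of 16 were that deep. The counts within gestation were not repeated without such cells.

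For G against NP (754 and 1055), 20 cells per mouse gave 322 and 405, and a test against a 2-fold change (glmTreat) 213 and 187. For G against PI (598 and 894) these gave 252 and 331, and 168 and 179. Leaving out 1 mouse gave 204 to 640 and 195 to 997 against NP, and 120 to 651 and 174 to 1064 against PI, with the lowest counts without G mouse 2. The interaction (694 and 1362) gave 551 and 563 with DESeq2, 119 and 284 with 20 cells per sum, and 284 to 665 and 786 to 1094 without 1 mouse; the fits without an NP mouse were added after seeing the data. Same-numbered mice did not deviate together (correlations 0.0229, -0.00162 and 0.0224 over 11591 genes), so the numbers do not pair them. With the replicate block the counts were 757 and 1109 against NP and 610 and 935 against PI, and with no replicate block in the interaction 591 and 1198.

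Over the gene changes named here, 2420 values under alternatives kept their direction and call in 2244 cases, lost the call in 159, gained it in 12 and reversed in 5. Of the lost calls, 53 were without G mouse 2 and 49 with glmTreat. Without 1 mouse Top2a ranged from -7.464 to 6.241 against NP and from -6.6 to 6.669 against PI. The negative values are those without G mouse 2, where C5 had no UMI of Top2a, and show no direction. With 20 cells per sum the interaction of Areg became -0.2169 and that of Wnt4 -2.949, and those of Igf2, Hsd11b2, Tnfsf11, Csn1s1 (adjusted p = 1.0 each), Foxa1 (0.55), Fxyd2 (0.29) and Fkbp5 (0.095) no longer passed. With DESeq2 that of Csn1s1 did not (0.71). Without 1 mouse the interaction of Csn1s1 ranged from -4.229 (without NP mouse 1) to 3.708. The cause was not tested.

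C5 is limited by its number of cells and by depth. With 123242 and 258370 UMIs, a gene without a UMI in C5 is limited only to 7.86 CPM over the 2 mice, so absence of a receptor is not shown. The dispersion of the stage fit comes mainly from sums with more cells, and leaving out the mouse with 41 cells removes many calls.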

Other observations

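Some genes of C5 outside the lists and rankings above were chosen after their values were seen. Further imprinted genes rose beside Igf2 and H19 in C5. Peg3, a paternally expressed zinc finger gene, was at 333 and 375 CPM in C5 against 0.392 and 0.481 CPM in NP and 9.86 and 9.15 CPM in PI (log2 changes 9.35 ± 0.32 and 5.07 ± 0.24), in 14 of 20 and 32 of 41 cells. Cdkn1c, also imprinted and named above, rose over NP and PI (log2 changes 3.28 ± 0.68 and 3.51 ± 0.70) on 4 and 8 UMIs in C5. Without G mouse 2 neither of these calls was kept. The basal cells C13 of the same mice held more Cdkn1c, at 165 and 147 CPM against 32.5 and 31.0 CPM in C5. Meg3, Dlk1, Mest, Ndn, Peg10 and Sgce had no UMI in C5. That allows up to 7.86 CPM, so these genes show neither a rise nor its absence. Grb10, Plagl1, Snrpn, Nnat, Impact, Igf2r, Phlda2 and Gnas did not pass against NP or PI, with Gnas at 868 and 793 CPM.

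A gene of red cells was found without its partners. Hba-a1, an alpha globin gene, was at 617 and 426 CPM in C5, in 18 of 20 and 33 of 41 cells, and at most 17.5 CPM in the other gestation clusters. It rose over NP by 4.26 ± 0.26 and over PI by 4.13 ± 0.26 on the log2 scale. Hba-a2, Hbb-bs and Hbb-bt had no UMI in C5. Tph1, the rate-limiting enzyme gene of serotonin synthesis, was at 373 and 290 CPM in C5 against 66.4 and 36.0 CPM in NP (2.40 ± 0.31) and at most 9.36 CPM in the other gestation clusters. Vwf, the von Willebrand factor gene, was at 162 and 213 CPM in C5 and 19.2 and 18.4 CPM in NP (3.09 ± 0.25), while the 6 endothelial markers had no UMI there.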
